A study of Mus musculus with 5 samples.

Results

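The genes described here are 10 markers of endothelial cells, the cells that line blood vessels: Cldn5, Pecam1, Cd34, Aplnr, Kdr, Flt1, Tek, Tie1, Esam and Cdh5. They were followed over all 5 Affymetrix mouse arrays of a study of Dlx1/2 mutant embryos. Every probe set whose only annotated gene symbol was one of these names was taken, which gave 15 of the 45101 probe sets and 10 of the 18193 genes with a named probe set. Flt1 had 4 probe sets, Aplnr and Cdh5 had 2 each, and the other 7 genes had 1 each. The arrays were of primary neuronal cultures from Dlx1/2 mutant embryos (1 array), the same cultures from WT embryos (1 array), tissue from Dlx1/2 mutant embryos (2 arrays) and tissue from WT embryos (1 array). All material was the ventricular and subventricular zone of the rostral medial ganglionic eminence (MGE), a ventral forebrain region where many cortical interneurons arise, taken from embryos at E15.5 (embryonic day). The labels name neither the mutant alleles nor the strain, the number of embryos behind an array, the days in culture or the culture medium. Nothing in them marks the mutant tissue pair as independent embryos, so the p-values measure a spread that could be technical. For culture against tissue, and for genotype across both, that spread also takes in how far the genotype differences in culture and tissue disagree.

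Endothelial cells enter the embryonic forebrain as sprouts and form vessels under control of vascular endothelial growth factor (VEGF), whose receptors are encoded by Kdr and Flt1. The angiopoietin receptor Tek and its partner Tie1 steady the new vessels, while Cdh5, Cldn5, Esam and Pecam1 join neighbouring endothelial cells at their borders. Some of these genes are known outside the endothelium as well: Cd34, Tek and Pecam1 in blood cells or their progenitors, and Kdr in some neural cells.

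The arrays followed their labels at the targeted genes. The deposited signal of Dlx1 was 1.26 in mutant culture, 603 in WT culture, 2.80 and 0.921 in mutant tissue and 3278 in WT tissue. Lhx6, a transcription factor of MGE interneurons, read 374 in mutant culture, 914 in WT culture, 895 and 924 in mutant tissue and 1321 in WT tissue. The neuronal tubulin gene Tubb3 read between 2235 and 4219 in the 5 arrays. Nkx2-1, which specifies the MGE, was dim in cultures (12.6 in mutant and 16.2 in WT) and read 60.6 and 78.4 in mutant tissue and 43.3 in WT tissue. Array medians lay between 26.2 and 29.8 in signal.

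By its brightest probe set, each endothelial marker was above the floor of the measurement in all 3 tissue arrays. Signals were lower in both cultures, with Kdr as the exception. The fall of Flt1 in mutant arrays was small, at 1.28-fold. For 9 of 10 markers, both culture arrays lay below all 3 tissue arrays. Among all 18193 named genes 20.9% did so. Within the mutant arrays, 8 of 10 markers were at least 2-fold lower in culture than in tissue, where 8.56% of named genes were. Within the WT arrays, which share no array with the mutant ones, 9 of 10 were, where 10.2% of named genes were. The median of the 10 markers on the log2 scale, culture minus tissue, was -2.62 in mutant arrays and -2.97 in WT arrays, with 0.00 for all named genes in both. Differences here were taken after quantile normalization, with signals under the pooled 20th percentile (5.15) set to that floor, and each gene was represented by its brightest probe set. In bulk samples of this kind, fewer endothelial cells and less RNA per cell cannot be told apart.

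**Figure D1:**
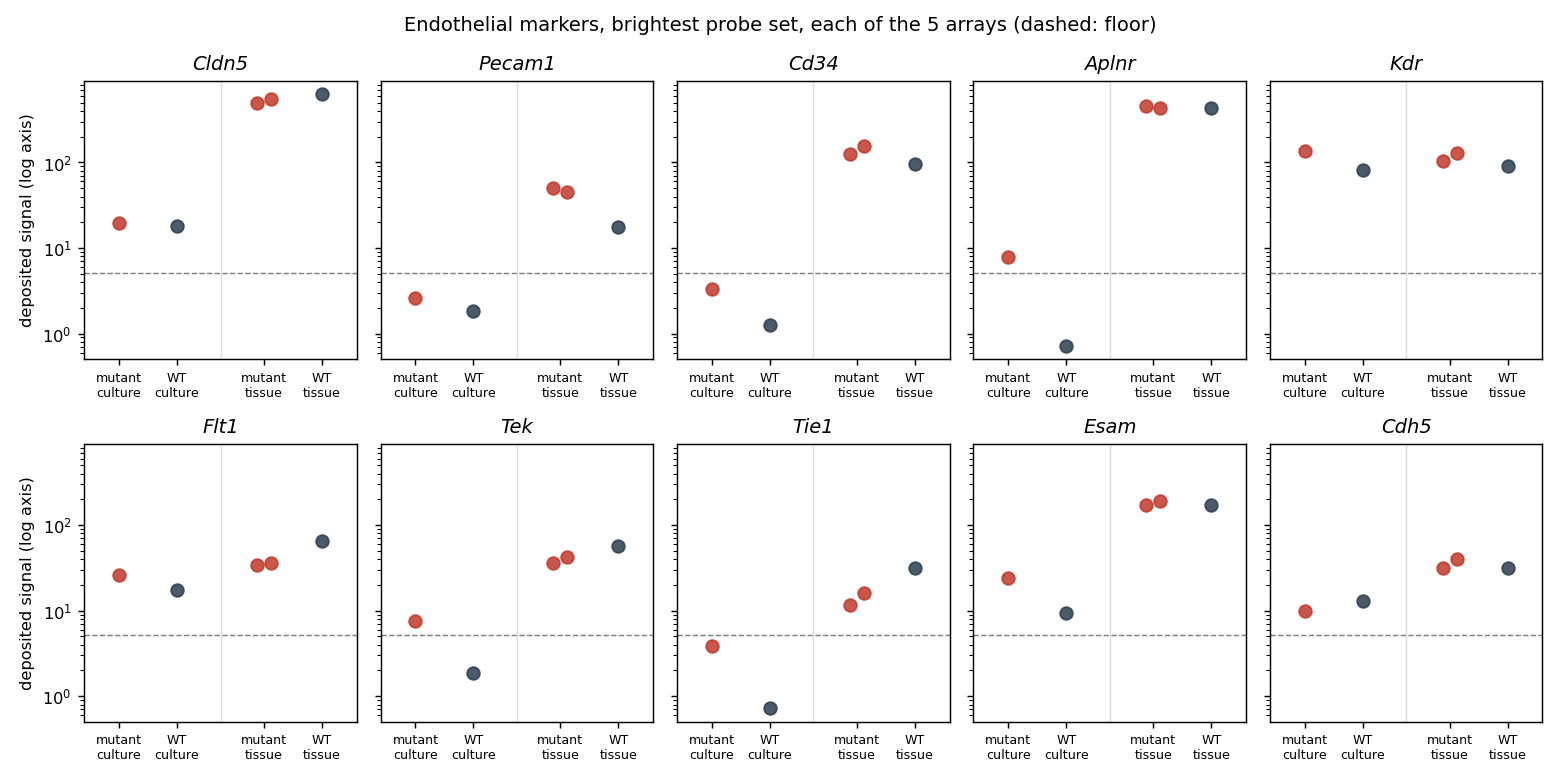
Deposited signal (log axis) of the brightest probe set of each of the 10 endothelial markers in mutant culture, WT culture, mutant tissue (2 arrays) and WT tissue, 1 point per array; the dashed line is the floor of 5.15. Both culture points lie below all tissue points in 9 panels, and in the panel of Kdr they overlap.

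The genes of endothelial cell borders were lower in culture by differing amounts. Cldn5, the claudin that seals the tight junctions of the blood-brain barrier, read 19.4 in mutant culture and 17.9 in WT culture, against 501 and 558 in mutant tissue and 638 in WT tissue. The cultures agreed closely and the groups were far apart. The fitted difference was -4.89 ± 0.17 (log2, culture minus tissue, SE), a 29.7-fold fall (limma adjusted p = 2.66e-06). Esam, an adhesion molecule of endothelial tight junctions, read 24.2 in mutant culture and 9.33 in WT culture, against 172 and 190 in mutant tissue and 172 in WT tissue. It fell by 3.40 ± 0.33 on the log2 scale (10.6-fold, limma adjusted p = 1.97e-04), and its mutant culture value stood above its WT culture value. Cdh5, the cadherin of endothelial adherens junctions, was dim everywhere. Its brighter probe set read 9.95 in mutant culture and 13.01 in WT culture, against 31.7 and 40.7 in mutant tissue and 31.3 in WT tissue, without overlap. The other Cdh5 probe set ran the opposite way, with 7.56 in mutant culture and 15.1 in WT culture, against 1.77 and 0.684 in mutant tissue and 7.60 in WT tissue, all near or under the floor in tissue. Pecam1, an adhesion molecule at endothelial borders, was under the floor in both cultures (2.60 in mutant and 1.86 in WT), against 50.2 and 45.5 in mutant tissue and 17.8 in WT tissue. It was at least 9.06-fold lower in culture in mutant arrays and at least 3.21-fold lower in WT arrays.

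A pair of surface genes lost almost all signal in culture. Aplnr, the receptor of the peptide apelin on sprouting endothelial cells, read 7.90 in mutant culture and 0.708 in WT culture, against 462.5 and 435.6 in mutant tissue and 436.1 in WT tissue. The 3 tissue arrays were nearly equal for this gene. The difference was -6.12 ± 0.23 (limma adjusted p = 2.91e-06), and the WT fall alone was at least 85.9-fold because WT culture was at the floor. The dimmer Aplnr probe set kept the direction with a smaller size, at 10.9 in mutant culture and 14.3 in WT culture, against 40.7 and 65.2 in mutant tissue and 72.7 in WT tissue. Cd34, a sialomucin of capillary endothelium and blood progenitors, was under the floor in both cultures, with 3.30 in mutant and 1.25 in WT, against 125 and 156 in mutant tissue and 97.3 in WT tissue. Its fall was at least 26.2-fold in mutant arrays and at least 18.9-fold in WT arrays (limma adjusted p = 7.06e-05 for the fitted difference).

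The receptor tyrosine kinases did not move as one group. Tek read 7.64 in mutant culture and 1.89 in WT culture, against 36.0 and 43.0 in mutant tissue and 57.0 in WT tissue. The fall of Tek was 5.39-fold in mutant arrays and at least 10.7-fold in WT arrays. Tie1 was under the floor in both cultures (3.89 in mutant and 0.739 in WT), against 11.7 and 15.97 in mutant tissue and 31.8 in WT tissue. In both genes the highest value was that of WT tissue. Flt1, the VEGF receptor that binds the ligand tightly and signals weakly, did not pass by its brightest probe set, although both cultures lay below all tissue arrays. That probe set read 26.5 in mutant culture and 17.4 in WT culture, against 34.4 and 36.5 in mutant tissue and 64.6 in WT tissue (-0.97 ± 0.42, limma adjusted p = 0.107). Another Flt1 probe set had 3.89 in mutant culture and 1.67 in WT culture, against 23.7 and 23.6 in mutant tissue and 20.4 in WT tissue, so the groups stood apart and both cultures were at the floor. The remaining 2 Flt1 probe sets were near or under the floor in WT tissue and gave no clear order.

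Kdr, the main signalling receptor for VEGF, had no lower signal in culture. Its 1 probe set read 135 in mutant culture and 82.7 in WT culture, against 104 and 129 in mutant tissue and 90.5 in WT tissue. The groups overlapped, and the highest and the lowest of the 5 values were both cultures. The difference was 0.14 ± 0.20, with a 95% interval from -0.32 to 0.60 on the log2 scale (limma adjusted p = 0.604). The interval for Kdr lies wholly above that of Cldn5, which ran from -5.30 to -4.49.

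**Figure D2:**
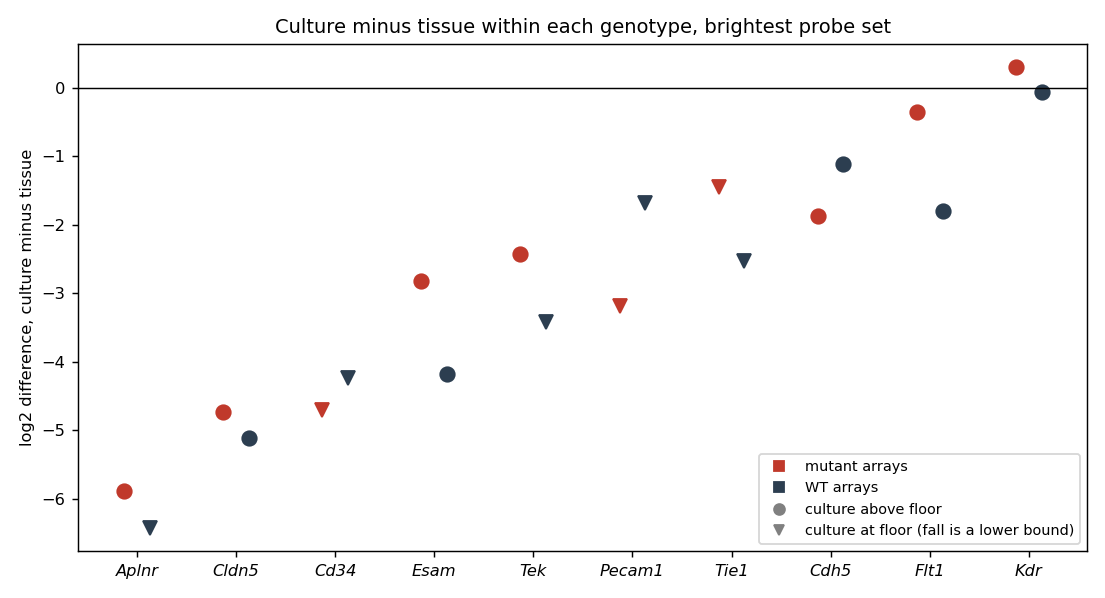
Log2 difference, culture minus tissue, of the brightest probe set of each marker within mutant arrays (1 culture array minus the mean of 2 tissue arrays) and within WT arrays (1 minus 1); triangles mark cultures at the floor, where the fall is a lower bound. Aplnr lies lowest (-5.89 in mutant and -6.43 in WT arrays) and Kdr lies at 0.30 and -0.07.

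In the test over all genes bright enough on average, 6 of the 10 markers could be tested, and Pecam1, Tek, Tie1 and Cdh5 were too dim. Of the 6, Aplnr, Cldn5, Cd34 and Esam fell in culture, none rose, and Kdr and Flt1 did not pass. Of all 11063 genes tested, 19.2% fell and 19.6% rose. The cultures of those 4 genes read under the filter of 27.8 in signal, so they entered the test through their tissue arrays and their count supports nothing by itself. With no filter all 10 were tested. Then 5 fell (these 4 and Tek, with limma adjusted p = 0.0460), where 5.12% of 18193 genes fell, and 0 rose, where 5.29% did. Pecam1, Tie1 and Cdh5 had adjusted p of 0.0740, 0.0805 and 0.0939 in that limma fit.

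Promoters of 4 markers are printed here, those of Cldn5 and Cd34, which fell in culture, and those of Flt1 and Kdr, which did not pass. The RefSeq promoter table (GRCm38.p6) matched 6 of the 10 genes, and the 250 bases before the listed transcription start are given. Capitals mark AGGAAG or its reverse complement CTTCCT, a form of the core bound by ETS factors, a family that acts in endothelial genes. No other motif was searched, and the 2 forms do not overlap each other in these windows.
Cldn5 (chr16:18776597-18776846, plus strand): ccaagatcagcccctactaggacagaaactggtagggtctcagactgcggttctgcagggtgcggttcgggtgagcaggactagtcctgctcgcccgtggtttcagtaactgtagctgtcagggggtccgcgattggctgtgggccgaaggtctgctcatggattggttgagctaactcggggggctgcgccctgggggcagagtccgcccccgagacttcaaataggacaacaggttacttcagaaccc
Cd34 (chr1:194938571-194938820, plus strand): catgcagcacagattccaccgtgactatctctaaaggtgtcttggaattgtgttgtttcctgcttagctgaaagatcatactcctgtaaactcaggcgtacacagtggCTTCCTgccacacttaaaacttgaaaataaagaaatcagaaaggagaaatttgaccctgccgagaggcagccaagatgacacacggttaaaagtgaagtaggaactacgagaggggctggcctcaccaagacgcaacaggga
Flt1 (chr5:147726012-147726261, minus strand): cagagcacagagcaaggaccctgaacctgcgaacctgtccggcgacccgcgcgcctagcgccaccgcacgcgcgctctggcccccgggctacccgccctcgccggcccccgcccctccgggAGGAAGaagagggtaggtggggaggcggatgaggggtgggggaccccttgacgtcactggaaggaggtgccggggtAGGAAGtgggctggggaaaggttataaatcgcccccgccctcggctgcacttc
Kdr (chr5:75978456-75978705, minus strand): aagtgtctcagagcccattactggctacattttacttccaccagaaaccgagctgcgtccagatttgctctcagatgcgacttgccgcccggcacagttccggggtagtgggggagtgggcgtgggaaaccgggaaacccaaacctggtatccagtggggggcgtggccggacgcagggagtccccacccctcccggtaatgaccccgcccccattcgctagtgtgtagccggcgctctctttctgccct
The motif stood 2 times in the Flt1 window and 1 time in that of Cd34, and not in those of Cldn5 or Kdr. Of the 2 windows not printed, that of Tie1 held it 1 time and that of Tek did not. Over all 32851 promoters in the table, 29.5% held it within 250 bases. These are matches of letters and not sites of binding, and both Kdr, whose groups overlapped, and Cldn5, which fell, had none.

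Other genes of endothelial cells moved both ways in culture, more of them down. Of 22 further endothelial genes 13 were tested, and 7 fell and 1 rose in culture (median -0.81, beside 0.00 for all genes tested), where 19.2% of all genes fell and 19.6% rose. With no filter 5 of the 22 fell and 2 rose, where 5.12% and 5.29% of all genes did. Cd93, a surface lectin of endothelium, read 15.01 in mutant culture and 13.6 in WT culture, against 194 and 190.5 in mutant tissue and 174 in WT tissue, and was 12.4-fold lower. Both Cd93 cultures lay under the filter, so it entered that test through tissue, and with no filter its limma adjusted p was 0.0224. Ramp2, the partner of the adrenomedullin receptor, fell 4.92-fold and the sialomucin gene Emcn 3.12-fold. The Emcn call was lost with no filter (limma adjusted p = 0.160) and without mutant tissue replicate 1 (0.0704) or 2 (0.0622). Of the 7 that fell, 3 more lost their call with no filter, Nos3 (0.155), Egfl7 (0.159) and Slc2a1 (0.0932). Without mutant tissue replicate 1, Nos3 (0.109) and Egfl7 (0.137) did not pass, and Egfl7 did not without replicate 2 (0.0766) or with the mean of a gene's probe sets (0.0669). Mfsd2a, a lipid transporter of brain endothelium, went the opposite way, at 2931 in mutant culture and 2772 in WT culture, against 332 and 401 in mutant tissue and 389 in WT tissue (7.51-fold higher, limma adjusted p = 4.50e-06). Of 12 endothelial transcription factors 6 were tested, and 4 fell: Fli1 by 2.71, Epas1 by 1.29, Lmo2 by 1.12 and Ets1 by 0.86 on the log2 scale. With no filter 2 of the 12 fell, and Epas1, Lmo2 and Ets1 did not pass (limma adjusted p of 0.0891, 0.0540 and 0.129). Among 16 ligands and receptors of the VEGF, angiopoietin, apelin and Notch pathways, 12 were tested, with 3 lower, 1 higher and a median of 0.02. The phosphatase gene Ptprb, which acts on Tek, fell 3.09-fold, Notch4 fell 2.18-fold, Notch1 fell 1.87-fold and Vegfc rose 2.61-fold. With no filter 1 of the 16 fell and 0 rose, and Ptprb, Notch4 and Vegfc did not pass (limma adjusted p of 0.0906, 0.139 and 0.232). The Vegfc call was also lost when limma's trend of variance on intensity was left out (0.0777), and that of Notch4 without mutant tissue replicate 2 (0.0886). Both Ptprb cultures lay under the filter, at 15.9 in mutant and 25.6 in WT.

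Of the other ligand genes Vegfa, Vegfb, Angpt1, Apln and the Notch ligand genes Dll4 and Jag2 were tested and did not pass, and Pgf, Angpt2 and Vegfd were too dim. Vegfa read 160 in mutant culture and 185 in WT culture, against 173 and 164 in mutant tissue and 196 in WT tissue. Apln read 96.8 in mutant culture and 89.9 in WT culture, against 91.9 and 114 in mutant tissue and 82.9 in WT tissue. Vegfa and Apln thus overlapped between cultures and tissue in deposited signal, as did both angiopoietin genes. Angpt1 read 60.8 in mutant culture and 46.7 in WT culture, against 69.5 and 59.3 in mutant tissue and 60.5 in WT tissue. Angpt2 read 25.01 in mutant culture and 23.99 in WT culture, against 25.6 and 17.3 in mutant tissue and 8.72 in WT tissue. After normalization both Angpt2 cultures lay just above tissue on the log2 scale. They stood at 4.68 (mutant) and 4.67 (WT), against 4.66 and 4.15 in mutant tissue and 3.05 in WT tissue. Dll4 overlapped in deposited signal, at 43.1 in mutant culture and 23.45 in WT culture, against 41.7 and 32.8 in mutant tissue and 46.7 in WT tissue. For 3 ligand genes the cultures stood apart from tissue in deposited signal, above it for Vegfb and Jag2 and below it for Pgf. Among all 18193 named genes 20.9% had both cultures below all tissue arrays after normalization. The share above is not given here, so the number of ligand genes is not read as a result. Vegfb read 242 in mutant culture and 199 in WT culture, against 165 and 170.5 in mutant tissue and 184 in WT tissue (limma adjusted p = 0.0851). Jag2 read 74.8 in mutant culture and 80.5 in WT culture, against 60.4 and 73.2 in mutant tissue and 54.3 in WT tissue (limma adjusted p = 0.202). Pgf read 7.70 in mutant culture and 9.16 in WT culture, against 38.1 and 24.2 in mutant tissue and 22.4 in WT tissue.

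Lists of markers of other cells that lie in or around vessels did not all move with the endothelial genes. The median log2 difference, culture minus tissue, was -4.24 for red blood cell genes and -0.77 for pericyte and mural genes. It was -0.02 for microglia and macrophage genes and 0.38 for meningeal and fibroblast genes. Red blood cell genes were nearly absent in culture, where the summed deposited signal of the 9 named ones was 30.0 in mutant culture and 39.0 in WT culture, against 9963 and 8889 in mutant tissue and 12370 in WT tissue. Of these genes 6 were tested and 6 fell. Both cultures of all 6 read under the filter, so they entered the test through tissue and their count supports nothing by itself. With no filter 6 of the 9 fell, where 5.12% of all genes did. The embryonic globin gene Hba-x fell at least 107-fold, Hbb-b2 at least 51.8-fold and the haem enzyme gene Alas2 at least 47.0-fold, all with both cultures at the floor. Hbb-y read 3.98 in mutant culture and 6.30 in WT culture, against 8842 and 7771 in mutant tissue and 10640 in WT tissue. Globin genes are near-identical copies whose probe sets can share RNA, so single globin values are uncertain. Of 12 pericyte and mural genes 10 were tested, with 5 lower and 1 higher, where 19.2% of all genes were lower and 19.6% higher, and with no filter 4 of the 12 were lower and 1 higher. Both cultures of 4 of the 10 (Abcc9, Kcnj8, Vtn and Higd1b) lay under the filter, so these entered the test through tissue and the count of lower genes supports nothing by itself. The channel subunit genes Abcc9 and Kcnj8 fell (Abcc9 at least 27.6-fold with both cultures at the floor, Kcnj8 12.8-fold), as did Vtn, 15.1-fold, with an adjusted p of 0.0580 in the limma fit with no filter. Acta2, smooth muscle actin, read 14090 in mutant culture and 13630 in WT culture, against 86.4 and 94.9 in mutant tissue and 72.3 in WT tissue (173-fold higher, limma adjusted p = 2.98e-08), by a probe set of a class that can share RNA between related genes. The probe sets of Abcc9 and Ets1 are of the same class, and those of Egfl7 and Vegfc are of a like one. Microglia and macrophage genes kept signal in culture. The summed signal of 12 was 661 in mutant culture and 789 in WT culture. In tissue it was 984 and 1008 in mutant arrays and 911 in the WT array. Of 9 tested, 2 fell and 1 rose, where 19.2% of all genes fell and 19.6% rose. Those counts are not read as a result. Tyrobp read 152 in mutant culture and 132 in WT culture, against 128 and 126 in mutant tissue and 128 in WT tissue. Csf1r fell 3.46-fold, C1qb fell 1.72-fold and Cd68 rose 3.07-fold. With no filter 1 of the 12 fell and 0 rose, where 5.12% and 5.29% of all genes did. C1qb and Cd68 did not pass there (limma adjusted p of 0.114 and 0.150). The C1qb call was also lost with the mean of a gene's probe sets (0.298) and without mutant tissue replicate 1 (0.0812) or 2 (0.0726). Of 10 meningeal and fibroblast genes 3 were tested. Of these 1 rose, Col1a2 by 4.93-fold, and 0 fell, where 19.6% and 19.2% of all genes did. Without the filter 2 of the 10 rose and 0 fell, where 5.29% and 5.12% of all genes did. The summed signal of the 10 endothelial markers themselves was 240.1 in mutant culture and 146.8 in WT culture, against 1529 and 1650 in mutant tissue and 1636 in WT tissue. Kdr, which had no lower signal in culture, alone gave 134.8 of the mutant culture sum and 82.7 of the WT culture sum. In tissue it gave 104 and 129.2 in the mutant arrays and 90.46 in WT. What part these cell types have in each other's values was not tested.

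**Figure D3:**
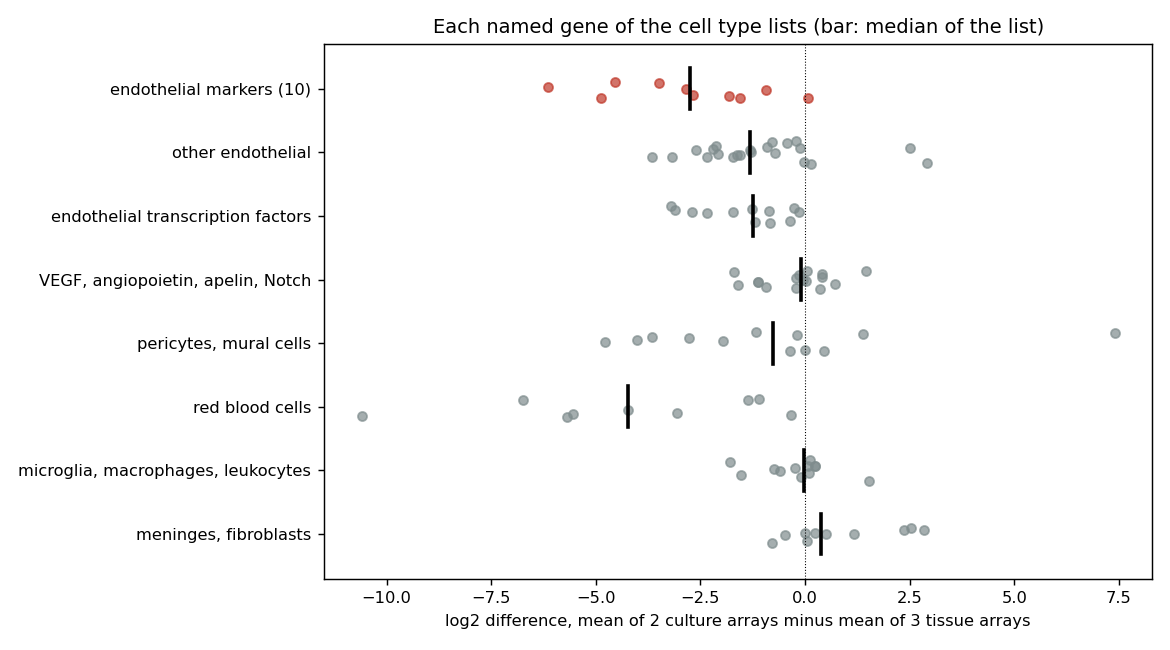
Log2 difference of each named gene, mean of 2 culture arrays minus mean of 3 tissue arrays, for the 10 endothelial markers and 7 other lists, with a bar at each median. Medians are -2.76 for the endothelial markers, -1.31 for other endothelial genes, -4.24 for red blood cells and -0.02 for microglia, macrophages and leukocytes.

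The genes whose profiles lay closest to the mean profile of the 6 tested markers over the 5 arrays were Cd93, Kcnj8, Slc39a8, Tmem204 and Rgs5. Likeness was the root mean square difference of log2 values after centring each gene on its own mean, and ran from 0.23 (Cd93) to 0.27 (Rgs5). Rgs5, a pericyte gene, read 93.3 in mutant culture and 61.5 in WT culture, against 522 and 563 in mutant tissue and 545 in WT tissue. The zinc transporter gene Slc39a8 read 23.3 in mutant culture and 10.1 in WT culture, against 130 and 133 in mutant tissue and 157 in WT tissue. By the same measure the markers themselves differed from their mean profile by 0.28 (Esam) to 1.67 (Kdr), so Esam came nearest and still lay outside these 5 genes.

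Between genotypes the endothelial markers gave no call. In tissue 0 of 6 tested markers passed, where 15.3% of all genes did. Of the 6, 2 had an unadjusted limma p under 0.05, as did 3209 of all 11063 genes. Across both preparations 0 of 6 passed, where 1.07% of all genes did. There 1 marker had an unadjusted limma p under 0.05, as did 1443 of all 11063 genes. With no filter on dim genes, 0 of 10 passed in either limma fit, where 2.14% of genes passed in tissue and 0% across both preparations. In tissue, 5 of 10 markers lay above 0 and 5 below (mutant minus WT), with a median of 0.00. Aplnr and Esam were nearly level, at -0.01 ± 0.12 and 0.01 ± 0.17. Their 95% intervals ran from -0.27 to 0.26 for Aplnr and from -0.37 to 0.39 for Esam. The other Aplnr probe set differed by -0.52 in tissue. Cldn5 was -0.33 ± 0.12 (limma adjusted p = 0.0854), Cd34 0.47 ± 0.22 (adjusted p = 0.173) and Kdr 0.31 ± 0.23 (adjusted p = 0.412). The 3 red blood cell genes Hba-x, Hbb-b2 and Hbb-bh1 were lower in mutant tissue in the same fit, by 0.58, 0.96 and 1.30 on the log2 scale, and their part in the endothelial values was not tested. These 3 calls were lost with no filter (limma adjusted p of 0.204, 0.278 and 0.375) and without the intensity trend (0.154, 0.133 and 0.157), and that of Hbb-b2 also with the mean of a gene's probe sets (0.332).

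The largest tissue differences among the markers were in dim genes and ran both ways. Pecam1 read 50.2 and 45.5 in mutant tissue, against 17.8 in WT tissue, 2.83-fold higher, which did not pass without the filter (limma adjusted p = 0.289). Tie1 read 11.7 and 15.97 in mutant tissue, against 31.8 in WT tissue (-1.08, limma adjusted p = 0.396 without the filter). In both genes the mutant pair lay on 1 side of the lone WT array. Flt1 had no single direction: its brightest probe set differed by -0.86 ± 0.35 when every probe set was fitted (limma adjusted p = 0.153), and its other 3 by 2.63, 0.32 and 1.72. Of the 2 Flt1 probe sets with the largest positive differences, one read 28.2 and 37.1 in mutant tissue, against 4.86 in WT tissue, and the other 19.2 and 14.6 in mutant tissue, against 1.85 in WT tissue, so each WT value was under the floor.

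**Figure D4:**
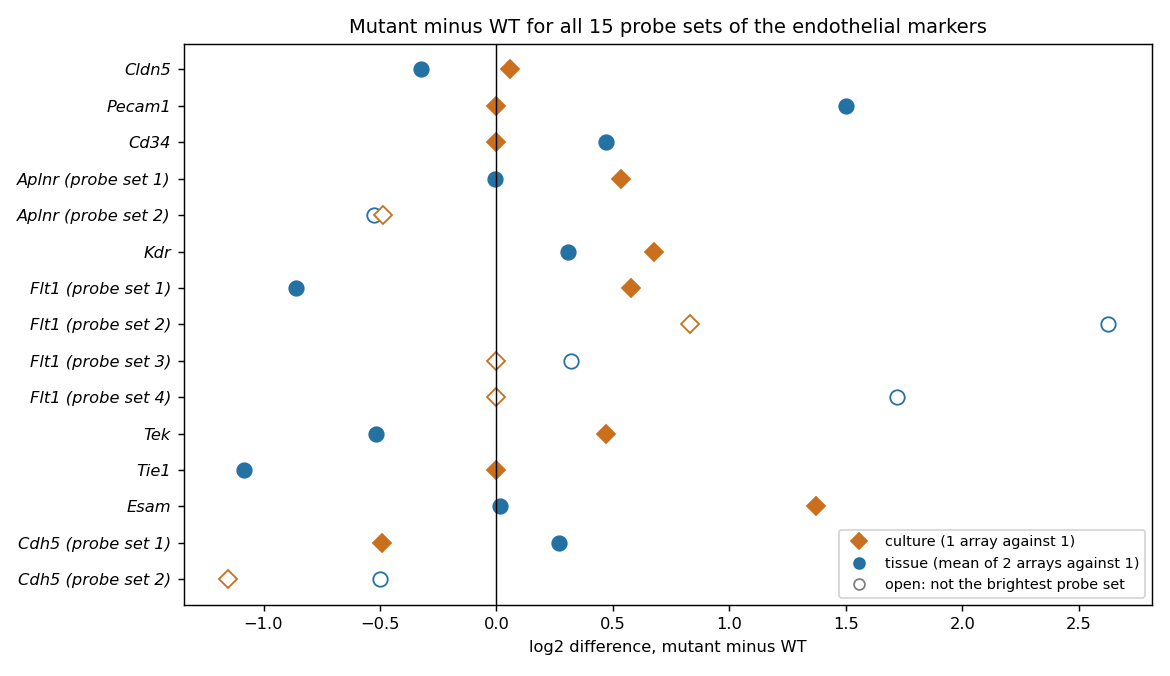
Log2 difference, mutant minus WT, of all 15 probe sets of the 10 markers in culture (diamonds, 1 array against 1) and in tissue (circles, mean of 2 against 1); open symbols are probe sets that are not the brightest of their gene. Differences lie on both sides of 0, and those of the 4 Flt1 probe sets in tissue run from -0.86 to 2.63.

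In culture, 1 array against 1, no test was made. Of the 10 markers 6 lay above 0 and 1 below, and 3 (Pecam1, Cd34 and Tie1) were at the floor in both arrays. Among all 18193 named genes 8494 lay above 0 and 8180 below. With 1 array on each side, the directions of the markers are not read as a result. Esam was the 1 marker past 2-fold, with 24.2 in mutant culture against 9.33 in WT culture (1.37 on the log2 scale), where 6.68% of named genes were at least 2-fold higher. The interaction, the culture genotype difference minus that in tissue, passed for 0 of 6 markers (4.48% of all genes passed). Without the filter it passed for 0 of 10 (3.21% of all genes). With the filter 2 of the 6 had an unadjusted limma p under 0.05, as did 2168 of all 11063 genes. Esam had an interaction of 1.36 ± 0.43 (limma adjusted p = 0.115) and Flt1 one of 1.44 ± 0.63 (adjusted p = 0.246). Aplnr had 0.54 ± 0.39 (limma adjusted p = 0.493), which became 1.78 and passed (adjusted p = 0.0404) when the floor was set at the 10th percentile.

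Of 41 tested genes of the other endothelial, transcription factor, pathway and pericyte lists, 4 were called between genotypes in tissue (9.76%), where 15.3% of all genes were. Fli1, an ETS factor of endothelial and blood cells, was the 1 endothelial transcription factor past the threshold. It read 88.5 in mutant culture, against 7.61 in WT culture, and 463 and 444 in mutant tissue, against 75.3 in WT tissue, 2.99 ± 0.25 higher across both preparations (limma adjusted p = 0.00199). That call was lost with no filter (0.311) and without the intensity trend (0.123), as was the call of Fli1 in tissue alone (0.0576 and 0.0678). Of the VEGF pathway genes, the coreceptor genes Nrp2 and Nrp1 rose in mutant tissue, by 2.69 ± 0.22 and 0.71 ± 0.11. Nrp2 read 219 and 199 in mutant tissue, against 33.5 in WT tissue, and 109 in mutant culture, against 74.1 in WT culture. Both neuropilins are also receptors for semaphorins on neurons. Of the pericyte genes 1 rose in mutant tissue, Ndufa4l2, by 1.58 ± 0.32 (limma adjusted p = 0.00546), and 0 of 13 further endothelial genes passed in any genotype fit. The tissue calls of Nrp2, Nrp1 and Ndufa4l2 were lost with no filter (limma adjusted p of 0.127, 0.0989 and 0.234) and without the intensity trend (0.0678, 0.128 and 0.0981). That of Nrp1 was also lost with the mean of a gene's probe sets (0.105).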

How the data were processed

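Expression was measured on 5 Affymetrix arrays. The authors deposited linear signal intensity values, 1 per probe set, with no software named in the sources used here; the values show a common scale, with a mean near 150 in each array after trimming. Arrays were quantile normalized, signals below the pooled 20th percentile were raised to that floor before taking log2. Of the probe sets, 34945 had 1 symbol in the platform annotation; the brightest stood for each of 18193 genes, and the 11063 whose mean passed the pooled median (27.8) were tested. The 3 tissue arrays gave the genotype effect in tissue (1 residual degree of freedom), a model of preparation and genotype over 5 arrays the effects across both preparations and of culture (2), and a model of the 4 groups the interaction (1), with limma 3.58.1 in R 4.3.3, an intensity trend and Benjamini-Hochberg adjustment (threshold 0.05). Lone arrays were assumed to vary like the mutant tissue pair, whose log2 difference had an SD of 0.324. In the model of preparation and genotype, the residual spread also included the disagreement of the genotype difference between tissue and culture. The number of arrays limits the precision. The limma fit and adjustment were tested on simulated log2 values, for culture against tissue and for genotype in tissue only. Normalization, the floor, the choice of probe set and the filter were not part of that test. Members, lists and tests were chosen with earlier results of these data known. Of each other list, genes past the threshold were named, at most 4 per list and contrast, by size; the ligand genes other than Vegfc, and Tyrobp, Nos3, Egfl7, Slc2a1 and Higd1b, were named after their values were seen. Of the 106 listed genes, 3 red blood cell genes had no named probe set here.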

Additional observations from a re-analysis of the deposited data

Results flagged for a closer look

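Of the listed genes tested, 3 had a genotype difference that itself differed between culture and tissue past the threshold in limma. Among all 11063 genes tested 4.48% did so, and the number of listed genes is not read as a result. Of 10 tested pericyte genes 1 had a positive and 1 a negative interaction, and of 12 tested pathway genes 1 had a negative one. Ndufa4l2, of the pericyte list, had an interaction of -3.78 (adjusted p = 0.00803), with 11.1 in mutant culture against 47.0 in WT culture, and 80.2 and 76.4 in mutant tissue against 27.2 in WT tissue. Nrp2 had an interaction of -2.19 (adjusted p = 0.00927) and Vtn, also of the pericyte list, one of 2.07 (adjusted p = 0.0188), with 27.3 in mutant culture against 8.07 in WT culture, and 221 and 251 in mutant tissue against 281 in WT tissue. All 3 interaction calls were lost with no filter (limma adjusted p of 0.202 for Ndufa4l2, 0.200 for Nrp2 and 0.227 for Vtn), with the mean of a gene's probe sets (0.0904, 0.250 and 0.227) and without the intensity trend (0.233 for each). That of Vtn was also lost with no floor (0.0524).

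A pair of endothelial markers too dim for the test had mutant arrays on opposite sides of WT in culture and in tissue. The culture difference minus the tissue difference was 0.99 for Tek and -0.76 for Cdh5 on the log2 scale. For Cdh5 this holds for the brightest probe set, and the other differed by -1.15 in culture and -0.50 in tissue (mutant minus WT). These were not tested with the filter in place, and without it their limma adjusted p were 0.446 and 0.584.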

How the results depend on the processing

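In each of the alternatives run, 3 to 5 endothelial markers fell in culture and 0 rose. The count was 3 with a floor at the 10th percentile, where Cd34 was not among the genes tested. It was 5 with no filter and 4 otherwise, also without either mutant tissue array. Except with no filter, the called markers entered the test through their tissue arrays, so these counts support nothing by themselves. Of all genes tested, 10.4% (no filter) to 43.2% (every probe set fitted) were called in either direction. No genotype call of a marker appeared in tissue or across both preparations. With the floor at the 10th percentile 1 marker, Aplnr, passed the interaction (1.78, limma adjusted p = 0.0404). Aplnr changed sign, without a call, with the deposited scaling kept (0.042 in tissue) and with the mean of a gene's probe sets (-0.14 across both preparations). The untested Cdh5 difference in tissue was -0.12 with the mean of a gene's probe sets, against 0.27 as reported. Without mutant tissue replicate 2 the tissue differences of Aplnr (0.04) and Esam (-0.04) changed sign, with no test. Across both preparations the untested difference of Tek (-0.09) changed sign with the floor at the 10th percentile (0.44) and without mutant tissue replicate 1 (0.04), and that of Cdh5 (-0.06) with no floor (0.02). Lost calls of the other genes named are given beside them. The count of all genes called moved more. With no filter it was 389 in tissue, 0 across both preparations (1713 at an unadjusted p under 0.05) and 1894 for culture against tissue, where 1691, 118 and 4297 were called. With the mean of a gene's probe sets it was 489 in tissue, 35 across both preparations and 4 for the interaction (496 as reported), and 304 for the interaction with every probe set fitted. Without the intensity trend it was 2 in tissue, 4 across both preparations and 0 for the interaction (1681 at an unadjusted p under 0.05). Leaving out a mutant tissue array gave 33 to 39 across both preparations and 2791 to 2932 for culture against tissue. In tissue and for the interaction, leaving one out left no residual degrees of freedom and no test. No paired analysis was possible because no 2 groups share 2 replicate numbers. Signals near the floor limit Pecam1, Tek, Tie1 and Cdh5. In culture they also limit Cd34, at the floor in both arrays, and Aplnr, whose brightest probe set was at the floor in WT culture. Both Cd34 cultures were set to the same floor value, so their spread was not measured.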

Other observations

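Some endothelial genes too dim on average for the test, and picked out here after their values were seen, stood apart between culture and tissue. Icam2, an adhesion molecule of endothelium, was under the floor in both cultures (3.18 in mutant and 3.44 in WT), against 46.8 and 44.1 in mutant tissue and 53.9 in WT tissue. Sox18, a transcription factor of endothelial cells, read 6.22 in mutant culture and 8.54 in WT culture, against 75.7 and 69.9 in mutant tissue and 47.2 in WT tissue. Slco1a4, an organic anion transporter of brain endothelium, had the opposite order, at 23.8 in mutant culture and 32.8 in WT culture, against 3.55 and 1.01 in mutant tissue and 3.26 in WT tissue. S1pr1, a sphingosine phosphate receptor of endothelium and of neural cells that was bright enough to be tested, overlapped between the groups, with 189 in mutant culture and 124 in WT culture, against 138 and 197 in mutant tissue and 119 in WT tissue.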
